A study of Homo sapiens with 15 samples.

Results

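Members of the cyclin-dependent kinase machinery of the cell cycle were followed in IMR32 after a hairpin against CDK2 was switched on. IMR32 is an established neuroblastoma line of human origin that carries amplified MYCN. The members are the kinases CDK1, CDK2, CDK4, CDK6 and CDK7 and the small CDK-binding subunits CKS1B and CKS2, chosen by name. All probe sets whose only gene symbol is one of these 7 were taken, 18 of the 41091 probe sets that name 1 gene, for 7 of 19775 genes. The array was the Affymetrix U133 Plus 2.0, with 15 arrays of total RNA in 5 groups of 3, taken at 0, 8, 24, 48 and 72 after doxycycline. No unit stands beside these times in the labels, and they are read as hours from what is known of the study.

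All 5 groups were the same cells, the selected clone IMR32-pcDNA6-CDK2sh. The clone carries a tetracycline repressor behind the CMV promoter (pcDNA6/TR, selected with Blasticidin) and the hairpin construct pTER/CDK2 (selected with Zeocine), directed at nucleotides 546 to 566 of the CDK2 mRNA. Cells grew in 10% fetal calf serum, and doxycycline at 100 ng/ml switched the hairpin on. The labels give this dose for every sample, and those of 0 h are set apart by their time alone. The question is how the transcripts of the kinase that was targeted, its close relatives and their subunits changed as CDK2 was depleted. Later arrays all had doxycycline and the same hairpin, and 1 clone was used, so the effects of the knockdown, of doxycycline and of time in culture cannot be told apart. The labels do not state that the 3 arrays of a time are separate cultures, and p-values therefore measure the spread between arrays, which may be technical.

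A cyclin-dependent kinase is active only with a bound cyclin and after phosphorylation of its activation loop. CDK4 and CDK6 act with D-type cyclins in G1, CDK2 with cyclins E and A around S phase, and CDK1 with cyclins A and B in G2 and mitosis, while CDK7, with cyclin H and MNAT1, phosphorylates the loop of the others and also serves in the transcription factor TFIIH. CKS1B and CKS2 dock on CDK1 and CDK2 and help them bind phosphorylated substrates, and CKS1B is also needed by the ubiquitin ligase SCF-SKP2 to recognise the inhibitor p27. MYCN-amplified neuroblastoma cells are known for weak control of the G1 to S transition, which is why these kinases are studied in them.

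Several of these genes are transcribed in a cell-cycle-dependent manner through short promoter elements, so the promoters of CDK1, CKS1B and CKS2, which fell together late in the time course, are shown here next to that of CDK4, which did not pass the test at any time. Windows of 300 bases around annotated starts, from 250 bases before to 50 from the start on, came from RefSeq (GRCh38.p14). The 9 windows covered 6 of the 7 genes, with none for CDK2, the targeted kinase. Capitals mark the cell cycle genes homology region (CHR, TTTGAA), the NF-Y box (CCAAT), an E2F site (TTTCGCGC) and the E-box CACGTG, all searched on both strands, so that a capital run that reads as the reverse complement of one of them is a match on the other strand.
CDK1 (start 2, chr10:60778228-60778527, plus strand): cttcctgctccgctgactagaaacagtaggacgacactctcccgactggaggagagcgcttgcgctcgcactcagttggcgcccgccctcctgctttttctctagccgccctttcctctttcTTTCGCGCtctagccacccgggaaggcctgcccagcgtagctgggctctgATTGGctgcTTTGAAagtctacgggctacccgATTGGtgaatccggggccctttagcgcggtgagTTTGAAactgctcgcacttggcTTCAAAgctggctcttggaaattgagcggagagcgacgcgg
CKS1B (chr1:154974431-154974730, plus strand): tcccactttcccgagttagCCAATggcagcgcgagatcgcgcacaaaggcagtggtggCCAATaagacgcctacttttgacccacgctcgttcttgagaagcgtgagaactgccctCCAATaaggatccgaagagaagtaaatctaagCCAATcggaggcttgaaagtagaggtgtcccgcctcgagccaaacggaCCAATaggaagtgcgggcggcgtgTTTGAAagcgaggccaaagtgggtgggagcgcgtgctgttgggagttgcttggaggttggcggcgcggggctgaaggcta
CKS2 (chr9:89310945-89311244, plus strand): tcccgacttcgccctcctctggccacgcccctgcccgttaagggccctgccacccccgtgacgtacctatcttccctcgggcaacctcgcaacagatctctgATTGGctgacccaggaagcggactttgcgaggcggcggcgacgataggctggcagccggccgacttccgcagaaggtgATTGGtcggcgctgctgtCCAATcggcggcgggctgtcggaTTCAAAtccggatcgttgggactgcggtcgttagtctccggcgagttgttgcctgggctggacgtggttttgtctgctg
CDK4 (chr12:57752261-57752560, minus strand): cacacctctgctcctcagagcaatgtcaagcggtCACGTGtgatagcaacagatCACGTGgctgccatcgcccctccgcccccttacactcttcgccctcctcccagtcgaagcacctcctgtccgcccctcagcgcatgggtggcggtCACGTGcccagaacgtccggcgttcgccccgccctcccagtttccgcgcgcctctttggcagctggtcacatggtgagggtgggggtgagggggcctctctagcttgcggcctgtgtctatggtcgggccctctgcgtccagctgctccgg

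The CDK1 window held 3 matches to TTTGAA, at bases -69 to -64 and -13 to -8 on the gene's strand and 9 to 14 on the other, counting the start as base 0. It also held 2 matches to CCAAT and 1 to TTTCGCGC, the latter at -128 to -121. The window of the other annotated CDK1 start (chr10:60778081-60778380, plus strand) overlaps it and held 1 match to each of these 3 motifs. Counted from that start, they lay at -161 to -156 (TTTGAA), -150 to -146 (CCAAT) and 19 to 26 (TTTCGCGC). Only the TTTCGCGC match is a site that both windows hold. The CKS1B window held TTTGAA at -30 to -25 and 5 matches to CCAAT, and the CKS2 window held TTTGAA on the other strand at -29 to -24 with 3 matches to CCAAT. In both CKS genes, then, a CHR lay within the last 30 bases before the start, with a CCAAT match upstream of it. TTTGAA occurred in 15.2% of the 34796 distinct windows of this length in the RefSeq table, CCAAT in 34.6% and TTTCGCGC in 0.5%.

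The CDK4 window held neither TTTGAA nor CCAAT, but 3 matches to CACGTG, the core of the E-box that MYC-family proteins bind, at -216 to -211, -196 to -191 and -101 to -96. CACGTG occurred in 7.2% of all windows and was added to the search after the sequences were seen. The window of the second CDK6 start (chr7:92836524-92836823, minus strand) held 1 CACGTG at 30 to 35, and each of the overlapping CDK7 windows held 1. None of the CDK6 and CDK7 windows held TTTGAA or CCAAT. The SP1 box GGGCGG, present in 44.9% of windows, occurred in the CDK1, CDK4, CDK7 and CKS1B windows and in that of the second CDK6 start, while TTCGAA (1.5% of windows) and TTTGGCGC (0.7%) occurred in none of the 9. A match is a string of letters in the reference and says nothing of binding in these cells.

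**Figure D1:**
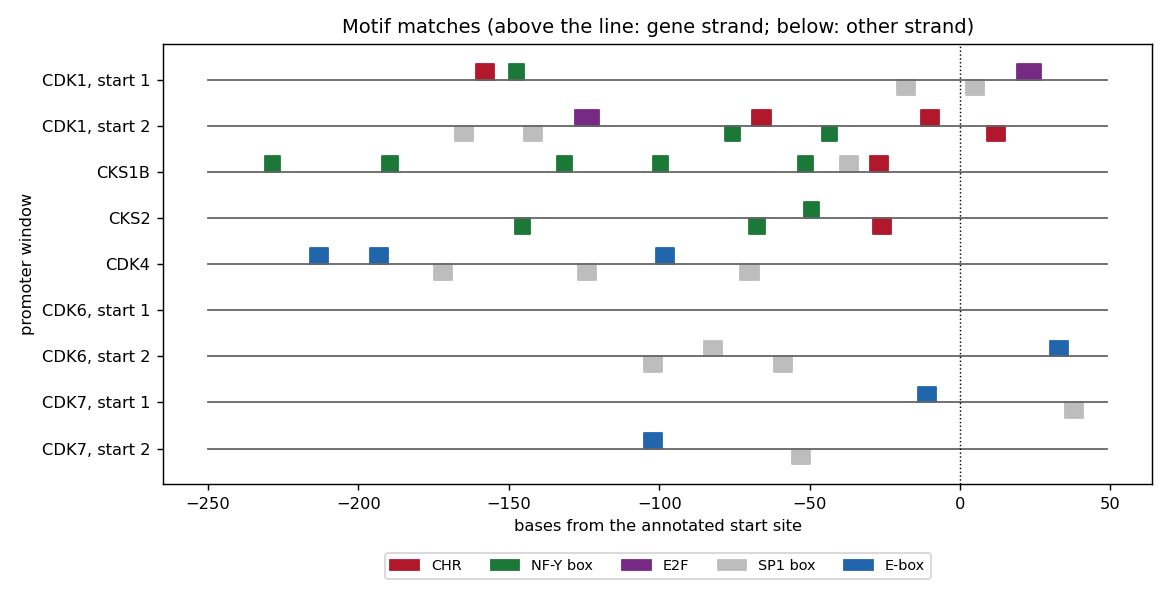
Position of motif matches in the 9 promoter windows, in bases from the annotated start (x axis), with 1 line per window and matches on the gene's strand drawn above the line and those on the other strand below it. Red marks (CHR) and green marks (NF-Y box) appear in the CDK1, CKS1B and CKS2 windows, and blue marks (E-box) in the CDK4, CDK6 and CDK7 windows.

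The values are MAS5 signals, linear hybridisation intensities. Their trimmed mean was 100.01 on every array, while the median signal over the array ran from 15.1 to 20.5 and rose from a mean of 16.3 ± 0.666 (SD, n = 3) at 0 h to 18.9 ± 1.601 at 72 h. The 72 h and 8 h arrays numbered 3 had the lowest weights when limma estimated array quality (0.356 and 0.405). Member changes without both are given where a call was lost or a sign turned, and for CDK1 at 72 h. Some others moved in size only, such as CDK2 at 72 h (-2.29 without them). Of 9 noradrenergic neuroblastoma markers on the array, 8 lay above the filter signal of about 16.6, the exception being TH (0.5 to 9.5), and MYCN ran from 4076 to 6128. The summed signal of the 9 was 10513 to 10906 at 0 h and 12829 to 13852 at 72 h. None of 3 immune markers was above the filter signal, against 1 of 4 endothelial (PECAM1), 1 of 4 epithelial (KRT8), 2 of 5 fibroblast (COL1A1, PDGFRB) and 3 of 7 mesenchymal markers (VIM, FN1, YAP1). At 72 h the summed signal was 7.8 to 31.4 for the immune, 33.1 to 67.4 for the endothelial, 27.3 to 61.1 for the epithelial, 294.7 to 509.2 for the fibroblast and 3226 to 3831 for the mesenchymal list, against 12.0 to 35.7, 32.9 to 47.9, 26.3 to 44.4, 250.5 to 448.2 and 4030 to 4594 at 0 h. The part of any of these shifts in the results was not tested.

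Changes are given as log2 differences of log2(signal + 16) between times, which understate the change of a dim probe set, each with its standard error (SE). A gene was called changed at a limma p-value below 0.05 after Benjamini-Hochberg adjustment over 11774 genes. Of the 7 members 1 was called at 8 h, where 0.450% of all genes tested were, and 1 at 24 h, where 13.5% were. At 48 h 5 were called against 44.0% of all genes, and at 72 h again 5 against 55.5%. From 24 h to 48 h, 6 of the 7 changed, beside 22.9% of all genes, and from 48 h to 72 h 4 changed, beside 10.7%. From 8 h to 24 h limma called none of the 7, with adjusted p from 0.34 to 0.98 and no unadjusted p under 0.05 (the lowest, for CDK1, was 0.090), beside 5.78% of all genes. The median change of the members against 0 h went from -0.0015 at 8 h to -0.14, -0.38 and -0.93 at 24, 48 and 72 h, while that of all genes tested was 0.02, 0.05, 0.08 and 0.10.

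**Figure D2:**
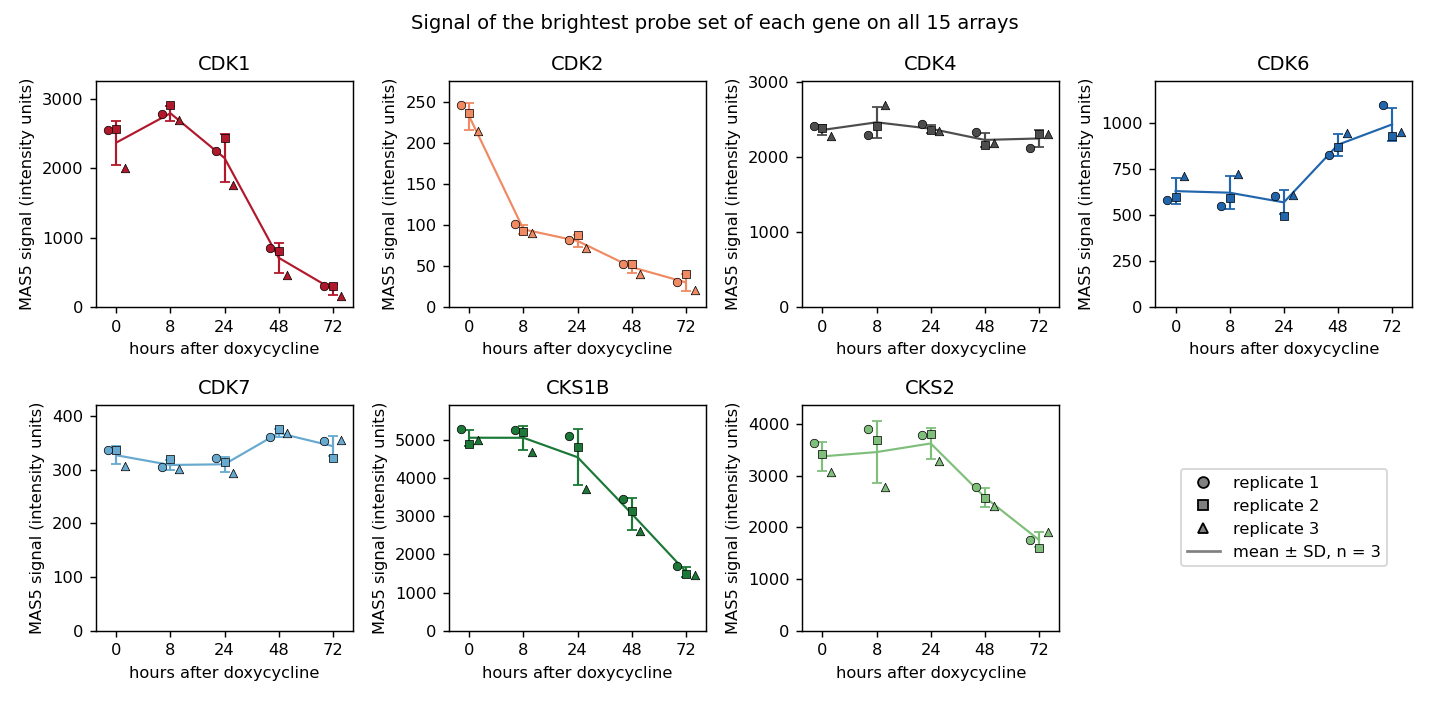
MAS5 signal (y axis, linear, from 0) of the probe set that stands for each gene on all 15 arrays against hours after doxycycline (x axis, times equally spaced), with points for the arrays numbered 1, 2 and 3 and a line for the mean ± SD of 3 arrays. CDK2 is low from 8 h on, CDK1, CKS1B and CKS2 are low at 48 and 72 h only, CDK6 is high at 48 and 72 h, and CDK4 stays between 2125 and 2693.

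CDK2, the kinase the hairpin is directed at, was lower at all 4 later times and was the first member to move. Its signal (probe set 204252_at) was 245.5, 236.0 and 213.7 at 0 h on the arrays numbered 1, 2 and 3, then 100.8, 92.6 and 90.2 at 8 h and 81.0, 87.8 and 72.4 at 24 h. It was 52.7, 53.0 and 40.1 at 48 h and 30.0, 40.0 and 20.2 at 72 h. No array of any later time reached the 0 h arrays, and the 3 arrays of 48 h and of 72 h also lay below all arrays of the time before. The mean fell to 40.8% of the 0 h mean at 8 h and to 13.0% at 72 h.

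On the log2 scale CDK2 fell by 1.16 ± 0.14 at 8 h (adjusted p = 0.00046), the greatest fall of all 11774 genes at that time. The change was -1.36 at 24 h (adjusted p = 3.7e-06), -1.94 at 48 h (8.3e-09) and -2.45 at 72 h (1.2e-10), each with an SE of 0.14. By size it ranked 13th, 23rd and 73rd among the falls at 24, 48 and 72 h. Thus 47.5% of the 72 h change was reached at 8 h, 55.7% at 24 h and 79.4% at 48 h. The order of the levels was 0 h, 8 h, 24 h, 48 h and 72 h. The neighbours 8 h and 24 h did not differ beyond their spread (-0.20 ± 0.14, adjusted p = 0.47). The steps to 48 h (-0.58, adjusted p = 0.0062) and to 72 h (-0.50, adjusted p = 0.030) passed the test. The last step did not pass without the 72 h array numbered 3 (-0.34, adjusted p = 0.14), nor without the 48 h array numbered 1 (-0.46, 0.10), the 48 h array numbered 2 (-0.45, 0.12) or the 72 h array numbered 1 (-0.51, 0.059). In RNA from bulk cultures such as these, fewer cells that carry a transcript and less of it per cell cannot be told apart, here and for every gene below.

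A second CDK2 probe set, 211804_s_at, gave 107 ± 15.2 (SD, n = 3) at 0 h, 41.2 ± 23.2 at 8 h and 14.4 ± 3.45 at 72 h, with no overlap of any later array with 0 h. Among 27307 probe sets tested singly it fell by 2.02 at 72 h (adjusted p = 2.9e-06), and its change at 8 h, -1.19 ± 0.24, did not pass (0.053). Nor did its steps from 24 h to 48 h (-0.43, adjusted p = 0.27) and from 48 h to 72 h (-0.28, 0.56). The remaining one, 211803_at, lay below the filter, with means from 1.93 to 5.37 and overlap at all times. The position of the probes relative to the hairpin's target was not analysed here.

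CDK1, the kinase of mitotic entry, passed the test at neither 8 h nor 24 h and then fell. By log2(signal + 16) CDK1 had the greatest 72 h fall of the members, but the size of its lead over CDK2 depended on the 16 added. Its signal (203213_at) was 2548, 2562 and 2006 at 0 h, 2783, 2911 and 2691 at 8 h and 2253, 2436 and 1762 at 24 h. At 48 h the 3 arrays gave 859.0, 808.5 and 467.1, and at 72 h 305.8, 299.3 and 157.4. All 8 h arrays of this probe set lay above the 0 h arrays, and the 24 h arrays overlapped them. Those of 48 and 72 h lay far below, with no overlap between 48 h and 72 h either. The mean was 30.0% of the 0 h mean at 48 h and 10.7% at 72 h, a 9.33-fold difference.

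The change of CDK1 was 0.24 ± 0.22 at 8 h (adjusted p = 0.79) and -0.14 at 24 h (0.72), neither past the test in spite of the 8 h arrays not overlapping those at 0 h. It fell by 1.75 ± 0.22 at 48 h (adjusted p = 4.3e-06) and fell by 3.19 ± 0.22 at 72 h (9.5e-10). At 72 h it had the 5th greatest fall of the 11774 genes, and at 48 h the 38th. The order of its levels was 8 h, 0 h, 24 h, 48 h and 72 h, and the first 3 of these did not differ beyond their spread. Both later steps passed, -1.61 from 24 h to 48 h (adjusted p = 3.0e-05) and -1.44 from 48 h to 72 h (0.00027). Without the 8 h and 72 h arrays numbered 3 the change of CDK1 at 72 h was -2.90 (adjusted p = 1.6e-09).

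All 4 CDK1 probe sets passed the filter and all 4 were lower at 72 h. Tested singly, 203214_x_at fell by 3.18 (adjusted p = 2.0e-11) and 210559_s_at by 3.20 (5.6e-11), close to the -3.19 of the probe set that stands for the gene. The dim probe set 231534_at fell by 1.60 (3.2e-06), its mean signal going from 42.7 ± 8.72 (SD, n = 3) at 0 h to 3.43 ± 3.36 at 72 h, a level at which adding 16 compresses the log2 change.

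**Figure D3:**
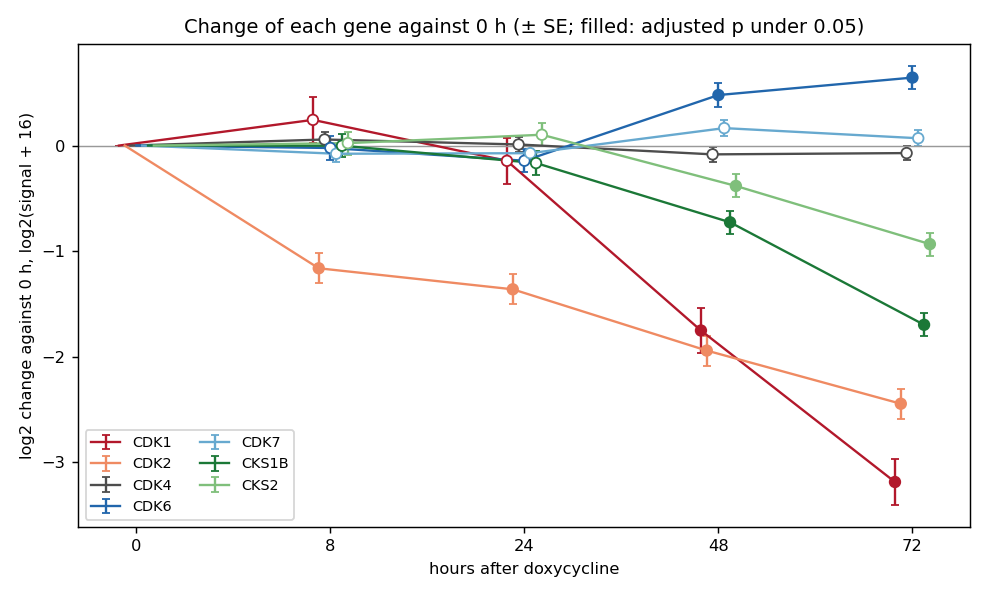
Log2 change of each of the 7 genes against 0 h (y axis, difference of log2(signal + 16), ± SE from limma) at each time after doxycycline (x axis, times equally spaced, points shifted sideways for legibility), with filled points for an adjusted p under 0.05. Only CDK2 is filled at 8 and 24 h, CDK1 ends lowest at -3.19, CDK6 is above 0 at 48 and 72 h, and CDK4 and CDK7 are open throughout.

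CDK4 and CDK6, the kinases of the D-type cyclins, went different ways. The CDK4 signal (202246_s_at, its sole probe set) was 2414, 2387 and 2289 at 0 h, 2292, 2412 and 2693 at 8 h and 2441, 2356 and 2343 at 24 h. At 48 h it was 2338, 2162 and 2192, and at 72 h 2125, 2314 and 2312. The arrays of every later time overlapped those of 0 h. The change was 0.06, 0.01, -0.08 and -0.07 at 8, 24, 48 and 72 h, each ± 0.07, with adjusted p from 0.34 to 0.94. The 95% interval of the 72 h change ran from -0.22 to 0.07, and that of the 48 h change from -0.23 to 0.06. The sign at the late times depended on the scaling between arrays, -0.18 at 48 h and -0.19 at 72 h with each array centred on its median and 0.04 and 0.11 after quantile normalisation, none of them past the test. No order of the 5 levels could be given, since no step passed.

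CDK6 rose late. Its signal (224847_at) was 579.3, 597.2 and 712.1 at 0 h, 550.1, 589.7 and 722.8 at 8 h and 605.1, 493.2 and 607.2 at 24 h, overlapping throughout. It reached 827.3, 870.9 and 946.2 at 48 h and 1096, 928.1 and 951.1 at 72 h, with all 6 arrays above every earlier one. It rose by 0.48 ± 0.11 at 48 h (adjusted p = 0.0019) and by 0.64 ± 0.11 at 72 h (8.4e-05), to 157.5% of the 0 h mean signal. That rise ranked 1625th of the 11774 genes at 72 h. The step from 24 h to 48 h passed the test (0.62, adjusted p = 0.00049, the 316th greatest rise of that step), and 48 h and 72 h did not differ beyond their spread (0.17 ± 0.11, adjusted p = 0.37). At 8 h and 24 h the changes were -0.02 (0.98) and -0.14 (0.43).

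The 7 CDK6 probe sets did not behave alike. The 3 bright ones all rose at 72 h when tested singly, 224847_at by 0.64 (adjusted p = 0.00015), 224848_at by 0.68 (3.8e-05) and 224851_at by 0.59 (0.0021), and all 3 had risen at 48 h. The 3 dim ones past the filter, with means of 45.4 to 60.4 at 0 h, changed at 72 h by 0.15 (243000_at, 0.52), 0.09 (207143_at, 0.70) and -0.02 (235287_at, 0.95). At 48 h they stood at 0.37 (adjusted p = 0.12), 0.16 (0.49) and 0.28 (0.35), none past the test, though the arrays of 243000_at lay above those of 0 h. At 8 h these 3 stood at -0.41, -0.36 and -0.53, with adjusted p of 0.45 to 0.53, while the bright ones were between -0.06 and 0.09. The 8 h arrays of 243000_at and 235287_at lay below those of 0 h. The 7th, 231198_at, lay below the filter with means of 10.6 to 20.2. When the probe sets of a gene were averaged, the change of CDK6 at 72 h was 0.36 (adjusted p = 0.010), down from 0.64 with the brightest probe set alone.

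**Figure D4:**
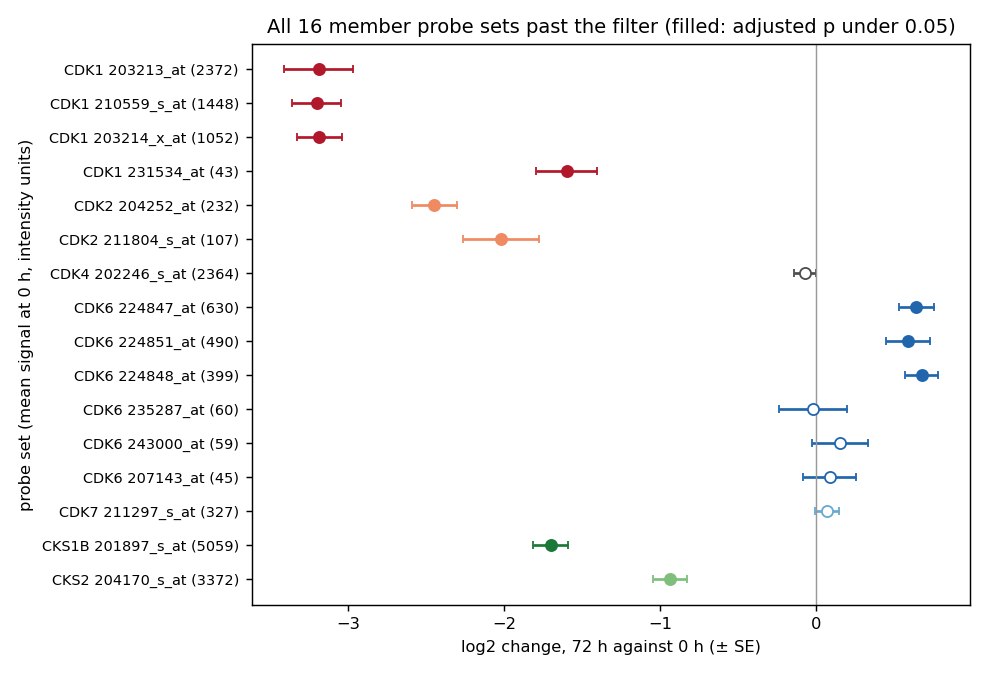
Log2 change at 72 h against 0 h (x axis, ± SE from limma over 27307 probe sets) of the 16 member probe sets past the filter (y axis, with the mean signal at 0 h in brackets), filled where the adjusted p was under 0.05. The CDK1, CDK2, CKS1B and CKS2 probe sets are all filled and left of 0, the 3 bright CDK6 probe sets are filled and right of 0, and the 3 dim CDK6 probe sets and those of CDK4 and CDK7 are open.

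CDK7, the CDK-activating kinase, moved little. Its signal (211297_s_at) was 336.7, 337.4 and 307.3 at 0 h, 305.1, 319.6 and 302.2 at 8 h and 321.8, 315.0 and 294.0 at 24 h. It was 361.6, 376.1 and 368.0 at 48 h and 354.1, 322.4 and 355.7 at 72 h. The 48 h arrays lay above all arrays of 0, 8 and 24 h, while those of the other times overlapped 0 h. Its change was -0.08, -0.07, 0.17 and 0.07 at 8, 24, 48 and 72 h, each ± 0.07. None passed, and the 48 h change had an adjusted p of 0.082. The step from 24 h to 48 h did pass (0.24 ± 0.07, adjusted p = 0.028). It did not with arrays centred on their medians (0.20, 0.12), nor when any 1 of 4 arrays was left out: 24 h numbered 2 (0.25, 0.051) or 3 (0.20, 0.097), or 48 h numbered 2 (0.22, 0.090) or 3 (0.24, 0.074). The sign of the 72 h change turned with centring (-0.05).

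CKS1B and CKS2, the small subunits, both fell from 48 h on, CKS1B further. The CKS1B signal (201897_s_at) was 5289, 4882 and 5006 at 0 h, 5261, 5215 and 4698 at 8 h and 5118, 4808 and 3717 at 24 h. It was 3441, 3148 and 2613 at 48 h and 1697, 1500 and 1451 at 72 h. Arrays of 8 and 24 h overlapped those of 0 h, the 48 h arrays lay below all earlier ones, and the 72 h arrays lay below those of 48 h. The change was -0.0015 at 8 h (adjusted p = 1.0) and -0.17 at 24 h (0.35). CKS1B then fell by 0.73 ± 0.11 at 48 h (4.0e-05) and by 1.70 ± 0.11 at 72 h (5.3e-10), to 30.6% of the 0 h mean. Of this, 42.8% had been reached at 48 h. Both late steps passed (-0.56, adjusted p = 0.0012, and -0.97, 1.2e-05), and at 72 h CKS1B ranked 204th among the falls. The order of its levels was 0 h, 8 h, 24 h, 48 h and 72 h, with the first 3 not differing beyond their spread.

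The CKS2 signal (204170_s_at) was 3622, 3419 and 3077 at 0 h, 3902, 3680 and 2784 at 8 h and 3792, 3800 and 3275 at 24 h. It was 2772, 2567 and 2405 at 48 h and 1759, 1609 and 1903 at 72 h. The 8 h and 24 h arrays overlapped those of 0 h, the 48 h arrays lay below them, and the 72 h arrays lay below those of 48 h. CKS2 stood at 0.02 at 8 h (adjusted p = 0.98) and at 0.10 at 24 h (0.59). It fell by 0.38 ± 0.11 at 48 h (0.0083) and by 0.93 ± 0.11 at 72 h (1.1e-06), to 52.1% of the 0 h mean, ranking 638th. From 24 h to 48 h the step was -0.49 (adjusted p = 0.0034), and from 48 h to 72 h -0.55 (0.0032). The highest mean was at 24 h, followed by 8 h and 0 h, and these 3 did not differ beyond their spread.

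Related members were compared within each array, as the difference between their log2 values at 48 or 72 h less that at 0 h, in 3 pairs and 6 two-sided exact permutation tests whose smallest possible p with 3 arrays against 3 is 0.1. CKS1B less CKS2 was -0.345 ± 0.084 (SE) at 48 h and -0.765 ± 0.12 at 72 h, and the arrays did not overlap at either time (exact p = 0.1, adjusted p = 0.12 for both). CDK4 less CDK6 was -0.563 ± 0.141 at 48 h and -0.716 ± 0.161 at 72 h, again with no overlap (exact p = 0.1, adjusted p = 0.12 for both). CDK1 less CDK2 was 0.19 ± 0.186 at 48 h, with overlapping arrays (exact p = 0.4), and -0.742 ± 0.171 at 72 h, without overlap (exact p = 0.1, adjusted p = 0.12). Both values depended on the 16 added to the dim CDK2 signal. With nothing added, an alternative chosen after seeing the data, CDK1 less CDK2 was 0.485 ± 0.161 at 48 h, without overlap, and -0.277 ± 0.153 at 72 h, with overlap. With 64 added, also chosen after seeing the data, it was -0.291 ± 0.21 at 48 h, so that its sign turned, and -1.31 ± 0.186 at 72 h. At 72 h the sign was the same in each of these settings, but the arrays overlapped with nothing added. No order of the CDK1 and CDK2 falls was therefore read from the pair. None of the 6 could pass at this number of arrays.

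Arrays of the same time differed in a shared way. The array numbered 3 was the lowest of its time for CDK1 and CDK2 at 5 of 5 times, for CKS1B and CKS2 at 4 of 5, for CDK7 at 3, for CDK4 at 2 and for CDK6 at 0 of 5. Over the 15 arrays the Pearson correlation was 0.977 for CDK1 with CKS1B, 0.953 for CKS1B with CKS2, 0.924 for CDK1 with CKS2 and 0.818 for CDK1 with CDK2. CDK6 ran against them, at -0.893 with CDK1 and -0.926 with CKS2. These values share the arrays and the time course and are descriptions. After the mean of each time was removed, CDK1 with CDK2 stood at 0.886, CDK1 with CKS1B at 0.716, CKS1B with CKS2 at 0.60, CDK1 with CKS2 at 0.202, and CDK6 with CKS2 at -0.732. The pair most alike within times was thus CDK1 and CDK2, whose falls first passed the test at different times.

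The genes with the patterns most like each member, by Pearson correlation of log2 values over the 15 arrays among all genes tested, differed between members. For CDK1 they were RFC4 (0.996), a subunit of the replication clamp loader, TTK (0.996), a spindle checkpoint kinase, and BRIP1 (0.995), a DNA helicase. For CKS1B they were NAA38 (0.995), a subunit of an N-terminal acetyltransferase, UBE2C (0.992), the ubiquitin-conjugating enzyme of the APC/C, and BIRC5 (0.987), survivin of the chromosomal passenger complex. For CKS2 they were KPNA2 (0.977), a nuclear import receptor, PSIP1 (0.973) and the histone variant gene H2AZ2 (0.970). Their 72 h changes ran from -0.76 (PSIP1) to -3.01 (BIRC5). For CDK2, which fell early, the nearest were RNF138 (0.979), a ubiquitin ligase of DNA repair, ICE2 (0.957) and SLC44A1 (0.957), a choline transporter, with 72 h changes of -1.29, -0.87 and -1.86.

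For CDK6 the nearest were ALCAM (0.966), a cell adhesion molecule, LINC00205 (0.958) and SSTR5-AS1 (0.958), with 72 h changes of 1.15, 0.74 and 1.56. The array design is not stated to separate SSTR5-AS1 from transcripts of the opposite strand. For CDK4 and CDK7, whose levels varied little, the highest correlations were lower. They were 0.874 for CNOT9, 0.871 for POLR2L and 0.862 for PIP4K2A with CDK4, and 0.885 for DYNC2H1, 0.883 for BMS1P20, a pseudogene whose copies the probes may not separate, and 0.868 for OSBPL1A with CDK7.

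The partners and regulators of the 7 genes were read from lists chosen by function. Of the 11 cyclins and CDK7 partners listed, 9 were measured. Of these limma called 0 at 8 h and 0 at 24 h (0 and 2 at an unadjusted p under 0.05), 7 lower at 48 h, where 17.7% of all genes tested were lower, and 6 lower at 72 h, where 22.7% were, with a median change at 72 h of -0.90. The 24 h count depended on the scaling. It was 1 lower with quantile normalisation, 2 with centring over the probe sets past the filter and 0 with median centring. At 72 h cyclins of CDK1 and CDK2 were at the bottom, CCNE2 at -2.43, CCNA2 at -2.40, CCNB1 at -2.40 and CCNB2 at -2.38, near the -2.45 of CDK2. CCNE1 fell by 0.90 and CCND3 by 0.73. CCND1, a partner of CDK4 and CDK6, fell by 0.27 at 48 h (adjusted p = 0.012) and stood at -0.19 at 72 h (0.060), while quantile normalisation gave -0.15 at 48 h (0.12) and median centring -0.31 at 72 h (0.021). CCNH and MNAT1, the partners of CDK7, were at 0.04 (0.67) and -0.11 (0.41) at 72 h.

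WEE1 and PKMYT1, which put the inhibitory phosphates on CDK1 and CDK2, and the CDC25 phosphatases, which take them off, made a list of 5. Limma called 0 at 8 h and 0 at 24 h (1 each at an unadjusted p under 0.05). At 48 h 4 were lower, beside 17.7% of all genes tested, and at 72 h all 5, beside 22.7%, with a median of -1.74. The changes at 72 h were -2.64 for CDC25A, -2.46 for CDC25C, -1.74 for WEE1, -1.64 for PKMYT1 and -0.24 for CDC25B, so that both the kinases and the phosphatases fell. Of 8 genes listed as CDK inhibitors 6 were measured, and 1 rose and 2 fell at 72 h, with a median of -0.18. These 3 of 6 are near the 55.5% of all genes called at that time. The one that rose was CDKN1A (p21), by 1.27 at 24 h (adjusted p = 9.3e-08) and 1.88 at 72 h (2.5e-11), and at 24 h CDK2 was the sole member below its 0 h level by the test. CDKN3, a phosphatase that acts on the CDK activation loop, fell by 2.56, and CDKN2D, an inhibitor of CDK4 and CDK6, by 0.71.

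The CKS proteins also work with the ubiquitin ligases SCF-SKP2 and APC/C. Of the 14 genes of these, 0 passed limma's test at 24 h (3 at an unadjusted p under 0.05), 6 were lower at 48 h and 9 at 72 h, with a median of -0.37. The share called in either direction is near the 44.0% of all genes at 48 h and the 55.5% at 72 h, of which lower calls made up 17.7% and 22.7% of the genes tested. The greatest falls at 72 h were in CDC20, an APC/C activator (-2.88), and in the E2 enzymes UBE2C (-2.45) and UBE2S (-1.68), followed by RBX1 (-0.46), the RING subunit of SCF. SKP2, the receptor that CKS1B assists, fell by 0.40 (adjusted p = 0.0013), less than CKS1B itself. In TFIIH, which holds CDK7, 1 of 6 measured core genes (of 7 listed) was higher and 3 were lower at 72 h, with a median of -0.17: GTF2H5 at -0.80, GTF2H4 at -0.73, GTF2H3 at -0.28 and GTF2H1 at 0.29. These 4 of 6 are likewise near 55.5%. GTF2H1 did not pass with each array centred on its median (0.17, adjusted p = 0.16), nor GTF2H3 after quantile normalisation (-0.28, 0.051).

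Unlike CDK1 and CDK2, none of the other CDKs measured was called lower at 72 h. Of 12 measured (16 listed), 7 rose and the other 5 did not pass the test at 72 h, with a median of 0.29 against 0.10 for all genes. The share called is near the 55.5% of all genes called in either direction, while 32.8% of all genes were called higher. With each array centred on its median, 4 of the 12 rose (CDK18, CDK14, CDK17 and CDK13) and the median was 0.17. CDK18 rose by 1.41 (already 0.66 at 24 h, adjusted p = 0.0069), CDK14 by 0.71, and CDK17 and CDK13 by 0.42 each. Of 23 factors that act at cell-cycle promoters (E2F and DP proteins, pocket proteins, the LIN proteins of the DREAM and MYB complexes, MYBL2, FOXM1, NF-Y and RBBP4, a histone-binding subunit of DREAM), 4 were higher and 1 lower at 24 h, beside 13.5% of all genes called, while 3 were higher and 15 lower at 72 h, beside 32.8% and 22.7% of all genes, with a median of -0.41. The greatest falls at 72 h were -2.97 in E2F8, -2.92 in MYBL2, -2.91 in FOXM1 and -1.85 in E2F2. At 24 h, when CDK1 and the CKS genes had not passed the test, RBL2, a pocket protein of the DREAM complex, rose by 0.66 (0.00031), E2F7, a repressor of the E2F family, by 0.61 (0.00070), E2F5 by 0.49 and TFDP2 by 0.32, and LIN9 fell by 0.57 (0.0091). E2F7 later fell, standing at -1.31 at 72 h, while RBL2, E2F5 and TFDP2 were still higher at that time. The rises of E2F5 and TFDP2 at 24 h did not pass with median centring (0.43, adjusted p = 0.069, and 0.26, 0.15).

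**Figure D5:**
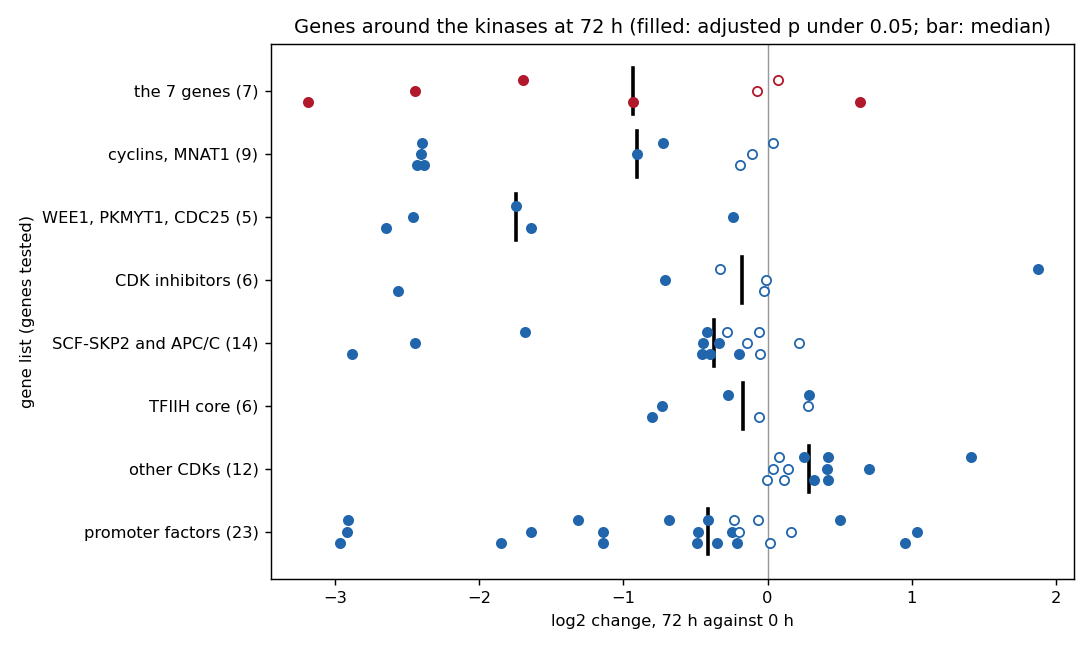
Log2 change at 72 h against 0 h (x axis) of each measured gene in the 7 gene lists and of the 7 members (y axis, with the number of genes measured), filled where the adjusted p was under 0.05, with a bar at the median of each row. The medians are -0.93 for the 7 members, -0.90 for the cyclins with MNAT1, -1.74 for WEE1, PKMYT1 and CDC25, -0.18 for the inhibitors, -0.37 for SCF-SKP2 and APC/C, -0.17 for TFIIH, 0.29 for the other CDKs and -0.41 for the promoter factors.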

How the data were processed

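Total RNA of the 15 samples was labelled (4 µg each) and hybridised to U133 Plus 2.0 arrays, and the authors deposited MAS5 signal intensities for 54675 probe sets, made with MAS5 and GCOS per the submitters' processing notes, with no versions given. The intensities were used as deposited. Symbols came from the platform annotation, where 41091 probe sets name 1 gene, 1801 several and 11721 none (62 controls aside). From log2(signal + 16), probe sets at or above the median mean were kept (27307), and the brightest stood for its gene (11774 genes).

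All 5 times shared 1 model in limma 3.58.1 (lmFit, eBayes with trend=TRUE) in R 4.3.3, without a block, for 7 comparisons, at a Benjamini-Hochberg adjusted p of 0.05, and the script was tested on simulated data. Python 3.11.15, pandas 2.3.3 and matplotlib 3.10.9 made tables and figures. The number of arrays, 3 a time, limits the precision. Residuals of arrays with equal replicate numbers correlated at 0.12 to 0.21 (48 h with 0 h) and 0.12 to 0.35 (72 h with 48 h), above 0.1 in 3 of 3 pairs. The labels do not say that the numbers pair arrays, so a block was fitted only as an alternative. The p-values given for the members and lists treat the arrays of different times as unpaired. In the other 5 comparisons the lowest correlation was -0.08 to 0.09. Alternatives changed the pseudocount, scaling, filter, probe-set rule, variance trend, array weights, block, threshold and the arrays used.

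The members and lists were chosen with earlier results of these data known. Named are the members, from each list up to 4 called genes with the greatest change at 72 h and 2 more at 24 h, and the 3 genes most correlated with each member. CCNE1, CCND1, CCND3, CCNH, MNAT1, CDC25B, SKP2, E2F5, TFDP2, LIN9, RBBP4 and the markers are named beyond the rule, with their values known. Protein sequences were not analysed here.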

Additional observations from a re-analysis of the deposited data

How the results depend on the processing

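Of 1414 member changes recomputed under an alternative, 1345 kept their direction and their side of the threshold, 27 lost a call and 1 gained one (CDK7 at 48 h against 0 h, 0.16, adjusted p = 0.040, with array weights). The remaining 41 turned in sign with no call on either side. The calls lost were those of CDK2 from 48 h to 72 h and of CDK7 from 24 h to 48 h, described above, and those that a required absolute log2 change of 1 removes. For CDK2 that step was also lost at a pseudocount of 64 (-0.26, adjusted p = 0.054), without the filter (-0.50, 0.063) with the mean of its probe sets (-0.39, 0.14) and without the 8 h and 72 h arrays numbered 3 (-0.34, 0.13), and for CDK7 with centring over the probe sets past the filter (0.22, 0.075). Why these settings moved the values was not tested.

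Requiring an absolute log2 change of 1 left 2, 70, 575 and 1212 genes at 8, 24, 48 and 72 h against 0 h and 17, 233 and 114 for the steps to 24, 48 and 72 h, with 2 members called at 48 h, 3 at 72 h and 1 in each of the last 2 steps. Testing probe sets singly gave 9460, 12684 and 4063 calls at 48 h and 72 h against 0 h and for the step from 24 h to 48 h, as more features were tested, and array weights gave 102 at 8 h. Keeping the brightest 25% of probe sets left 0 members called at 8 h and at 24 h (limma), because CDK2 was not among those tested. With any 1 array left out, 20 to 70 genes were called at 8 h and 1006 to 1843 at 24 h against 0 h, 370 to 842 from 8 h to 24 h and 656 to 1450 from 48 h to 72 h.

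Centring each array on its median turned the split of higher against lower calls from 911 against 673 to 457 against 727 at 24 h, from 3093 against 2082 to 2069 against 2556 at 48 h and from 3861 against 2670 to 2735 against 3250 at 72 h, where it moved the median of all genes from 0.10 to -0.01. With the replicate number as a block, 5580 genes were called at 48 h against 0 h and 1732 from 48 h to 72 h, against 5175 and 1258 without it, and 6878 against 6531 at 72 h. The block changed no call of a member. Of the 3 pairs compared within arrays, the sign turned for CDK1 less CDK2 at 48 h with a pseudocount of 64 (-0.291), as given above.

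The signs that turned belong to changes that passed under neither setting. With quantile normalisation CKS1B was at 0.012 at 8 h, CDK4 at 0.044 at 48 h, 0.11 at 72 h and 0.018 from 8 h to 24 h, and CDK7 at -0.0015 from 8 h to 24 h. With median centring CDK4 was at -0.051 at 24 h and -0.0065 from 48 h to 72 h, and CDK7 at -0.047 at 72 h and -0.037 from 8 h to 24 h. Centring over the probe sets past the filter gave -0.065 for CDK4 at 24 h, -0.023 for CDK7 at 72 h and -0.056 for CDK7 from 8 h to 24 h. This setting and the next were chosen after seeing the data. Without the 8 h and 72 h arrays numbered 3, CDK4 was at -0.0073 at 8 h, 0.0175 from 8 h to 24 h and -0.0077 from 48 h to 72 h, CKS1B at 0.051 at 8 h, CDK7 at -0.0098 and CKS2 at -0.068 from 8 h to 24 h. Array weights put CKS1B at 0.034 at 8 h, and the mean of probe sets put CDK6 at 0.16 from 8 h to 24 h and -0.019 from 48 h to 72 h. With any 1 array left out the ranges that crossed 0 were, at 8 h, -0.0073 to 0.11 for CDK4, -0.13 to 0.067 for CDK6, -0.031 to 0.051 for CKS1B and -0.072 to 0.17 for CKS2, and at 24 h -0.0125 to 0.026 for CDK4. From 8 h to 24 h they were -0.098 to 0.0175 for CDK4, -0.020 to 0.042 for CDK7 and -0.068 to 0.17 for CKS2, and from 48 h to 72 h -0.0097 to 0.053 for CDK4.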
